A study of Mus musculus with 18 samples.

Results

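Matrix metalloproteases (MMPs), ADAMTS proteases and their tissue inhibitors (TIMPs) were examined in adipose tissue of mice with raised human FXR, a nuclear receptor activated by bile acids. Members were all genes whose symbol began with Mmp and a number or with Adamts, or was Timp1 to Timp4, among probe sets with a single gene symbol. The brightest probe set stood for a gene with several. This gave 49 members of 19937 genes: 22 MMPs, 18 ADAMTS proteases, 5 ADAMTS-like proteins and 4 TIMPs. Mmp15 and Adamts2 were not analysed here.

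Expression was measured on Affymetrix mouse gene arrays, with 1 sample per array and labelled cDNA made from 500 ng of total RNA. All mice were male C57BL/6J, 10 weeks old and fed chow. Brown adipose tissue (BAT), which burns lipid to make heat, came from 5 wild-type controls and 5 mice that overexpressed human FXR in adipose tissue, and white adipose tissue (WAT), which stores lipid, from 4 and 4. The labels name neither the promoter behind the transgene, the number of founder lines, nor the WAT depot, and do not give whether 1 animal gave both tissues. Only the entries of control BAT 2 and 4 mention 6 weeks of feeding. Samples within a group are biological replicates by the design text, and p-values measure no more than their spread. The mouse gene Nr1h4, which encodes FXR, differed by 0.05 in BAT (adjusted p = 0.408) and by 0.03 in WAT (adjusted p = 0.834). In both tissues it lay within 1.5-fold of the array's dimmest 1% on every array, so a change of the mouse gene could be missed. Whether its probe set detects the human transcript was not tested, so it does not check the genotype labels.

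MMPs and ADAMTS proteases are zinc-dependent enzymes that are made as inactive precursors and cut the proteins of the extracellular matrix. MMPs cleave collagens, gelatin, elastin and laminin, whereas ADAMTS proteases cut proteoglycans, trim procollagens or act on fibrillin microfibrils. TIMPs block the active site, and TIMP2 has a further role: together with MMP14 at the cell surface it holds the MMP2 precursor so that it can be activated. In adipose tissue these enzymes remodel the matrix around adipocytes as the tissue grows or shrinks.

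The sequences below are shown because a stretch of chromosome 9 holds 10 neighbouring MMP genes, of which 8 share a promoter motif and 1, Mmp12, differed between the genotypes. The motif is TGANTCA, an element bound by AP-1 (FOS and JUN proteins), which reads the same on both strands. Promoters were those of RefSeq on GRCm38.p6, from 250 bases before to the first bases after each start, 300 bases in all, and were listed for 34 of the 49 members. Each line gives the motif in capitals with 24 bases on either side (11 for Mmp12), 5′ to 3′ on the strand of the gene. For 7 genes the stretch lies upstream of the whole annotated gene. That of Mmp12 precedes the second of its listed starts, at 7347374, which is 2977 bases inside the annotated gene (7344397 to 7360461). Whether it is exonic or intronic there was not determined.
Mmp13, chr9:7272455-7272509, plus strand: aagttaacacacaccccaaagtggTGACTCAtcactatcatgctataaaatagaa
Mmp12, chr9:7347319-7347347, plus strand: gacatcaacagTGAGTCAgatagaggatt
Mmp1b, chr9:7388089-7388143, minus strand: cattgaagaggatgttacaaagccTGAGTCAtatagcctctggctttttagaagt
Mmp3, chr9:7445752-7445806, plus strand: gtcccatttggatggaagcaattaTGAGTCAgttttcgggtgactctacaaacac
Mmp1a, chr9:7464044-7464098, plus strand: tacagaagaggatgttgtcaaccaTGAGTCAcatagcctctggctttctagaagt
Mmp10, chr9:7502255-7502309, plus strand: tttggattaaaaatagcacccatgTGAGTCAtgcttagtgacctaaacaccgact
Mmp20, chr9:7628112-7628166, plus strand: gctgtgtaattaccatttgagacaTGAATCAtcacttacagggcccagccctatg
Mmp7, chr9:7692003-7692057, plus strand: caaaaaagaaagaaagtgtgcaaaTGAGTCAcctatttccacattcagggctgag
Of these, 6 read TGAGTCA, 1 reads TGACTCA and 1 reads TGAATCA. The motif began or ended between 29 and 95 bases upstream of the start that the promoter belongs to. It was found in 8 of 37 promoters of members (21.6%) and in 7.81% of all 32851 promoters of the table. All 8 genes with it lie in the chromosome 9 stretch, and the promoters of the remaining genes there, Mmp8 and Mmp27, do not hold these letters. An inverted repeat of AGGTCA with a spacer of 1 base, the element usually bound by FXR with its partner RXR, was in 0 of the 37 promoters and in 3 of all promoters (0.009%). A match is a description of letters, not evidence of binding.

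Values below are levels, log2(intensity + 1), or differences between group means of such levels, FXR minus control, with the standard error (SE) of limma. A member was called where the p-value of limma, adjusted after Benjamini-Hochberg over all 19937 genes, was below 0.05. Fold changes are on the scale of intensity + 1 and understate changes of dim genes. No member was removed for low signal, although 6 of 49 in BAT (Mmp1a, Mmp1b, Mmp8, Mmp16, Mmp21 and Mmp27) and 22 of 49 in WAT lay within 1.5-fold of the array's dimmest 1% on every array. Levels of arrays of a group correlated across genes between 0.973 and 0.995. The median level of an array was 6.73 to 6.86 in BAT against 6.08 to 6.14 in WAT, so levels of both tissues are not on a common scale. Within BAT it was 6.73 to 6.80 on control and 6.82 to 6.86 on FXR arrays, so every FXR BAT median was above every control. Within WAT it was 6.08 to 6.12 and 6.08 to 6.14. Small differences in BAT therefore depend on the scaling too.

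Markers checked the labels and the makeup of the samples. Summed intensities of 11 brown adipocyte markers lay between 27232 and 33181 in control BAT and between 707 and 743 in control WAT, where 7 of them, Ucp1 among them, were within 1.5-fold of the array's dimmest 1%. Sums of 9 white adipocyte markers lay between 1271 and 1974 in control BAT and between 7512 and 8251 in control WAT. Skeletal muscle markers summed to 31469, 22696 and 30817 on FXR BAT 1, 2 and 4, against 1452 to 9872 on control BAT arrays, so counts of calls are also given without those 3 arrays. That setting keeps only FXR BAT 3 and 5, with sums of 1684 and 6881. In WAT, epididymis markers summed to 716 on FXR WAT 1 and to between 261 and 298 on every other WAT array. In whole tissue, fewer cells of a type and less RNA per cell cannot be told apart.

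In BAT, the comparison asked how raised FXR changed these genes in brown fat. Of 49 members, 14 rose, 0 fell and 35 missed the threshold. The background over all genes was 15.8% called, with 7.01% up and 8.75% down, so the members called higher (28.6%) were a larger share than the background and those called lower a smaller one. At an unadjusted p under 0.05, 20 members were higher and 2 lower, against 13.8% and 14.4% of all genes. The median difference was 0.0739 over the members and 0.0108 over all genes. Control and FXR arrays did not overlap for 11 members (22.4%), against 12.2% of all genes. With every array centred on its median, 12 members were higher and 5 lower, against 3.89% and 20.4% of all genes. The median difference was then -0.005 over the members and -0.068 over all genes. With quantile normalization 13 were higher and 1 lower, against 5.25% and 6.85% of all genes. Mmp9 was lower under both, by 0.31 and 0.23. Without FXR BAT 1, 2 and 4, 10 members rose, against 4.61% of all genes. Of these, 8 were among the 14 and the other 2 were Adamtsl3 and Mmp28. Without control BAT 2 and 4, 9 rose, all among the 14, against 3.53% of all genes. Quantile normalization also made some called differences over 1.5 times smaller while the calls held: Mmp11 (0.17), Adamts6 (0.20), Adamtsl1 (0.16), Adamtsl2 (0.18) and Adamtsl4 (0.20).

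**Figure D1:**
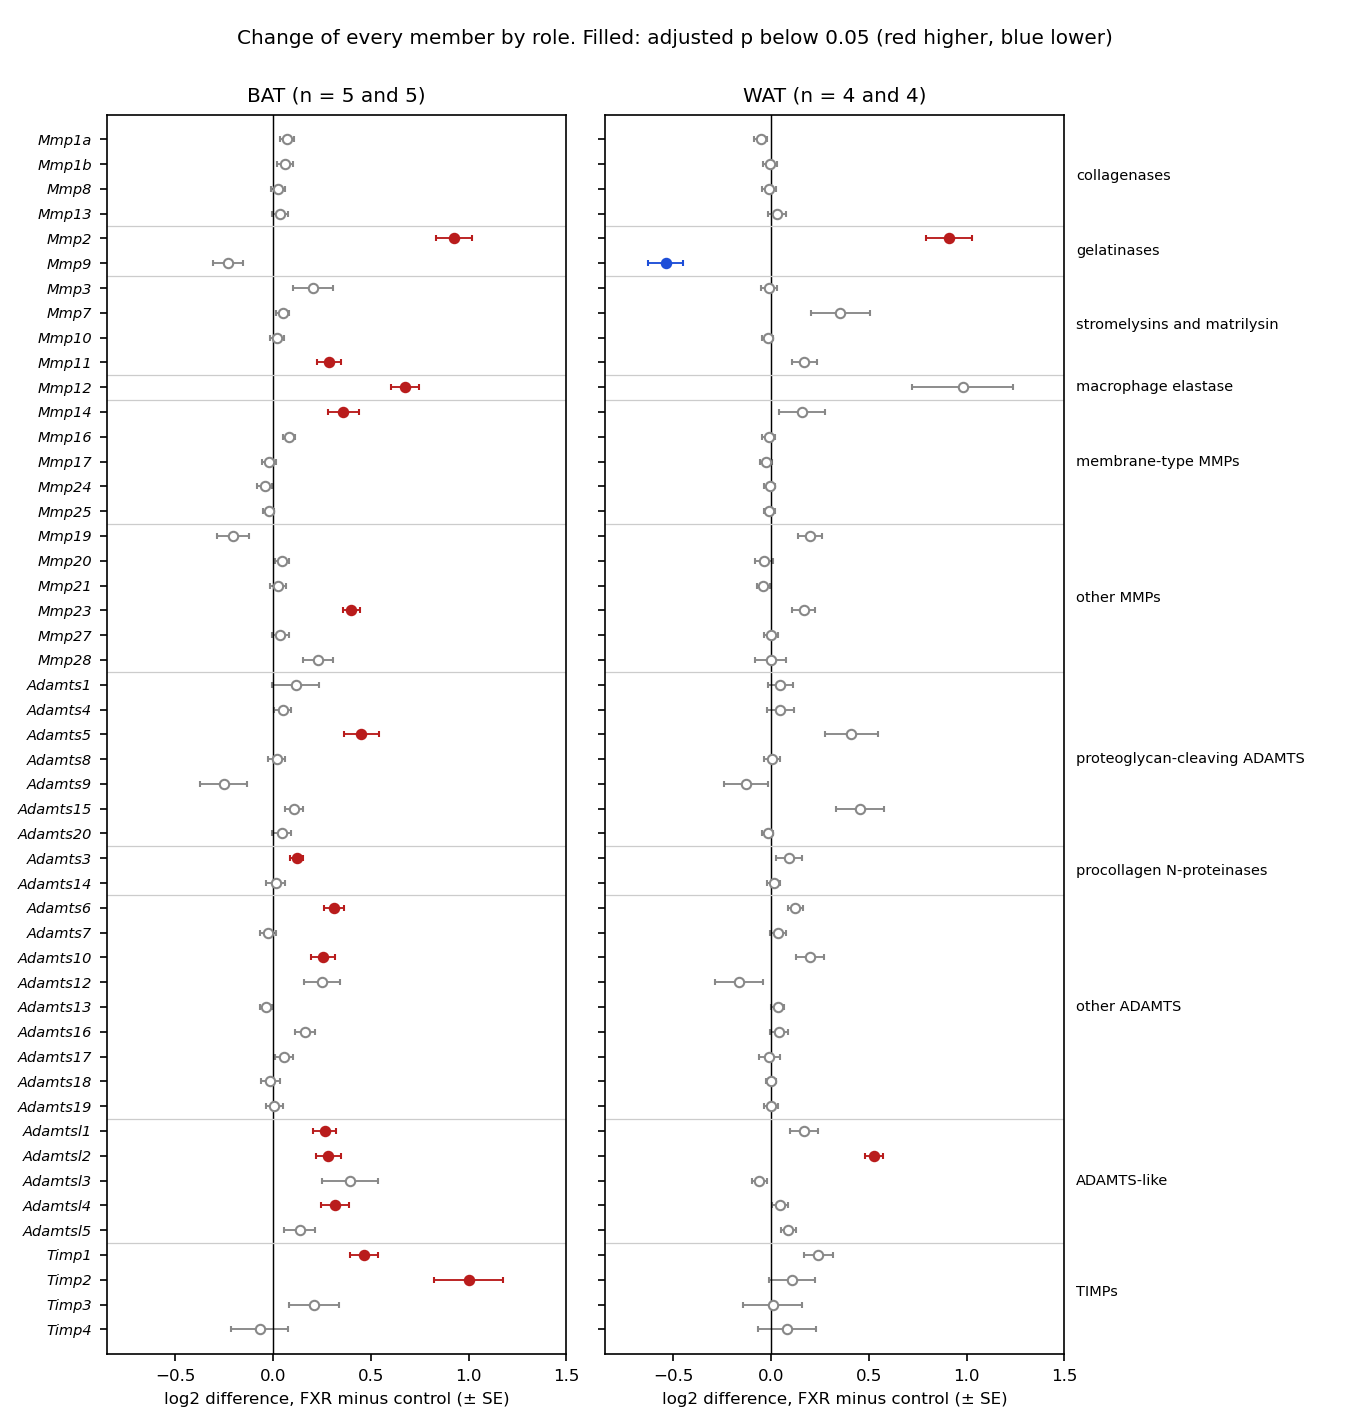
Difference between FXR and control (log2, horizontal axis, with SE) of each of the 49 members in BAT (left) and WAT (right), grouped by role; filled points had an adjusted p below 0.05. In BAT 14 points are filled, all to the right of 0; in WAT 3 are filled, with Mmp9 to the left.

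The gelatinases, which digest denatured collagen and basement membrane, differed from each other. Mmp2, gelatinase A, is made mainly by fibroblasts and other stromal cells. Its levels were 7.69, 7.76, 7.71, 8.18 and 7.72 on control BAT arrays 1 to 5 and 8.81, 8.56, 8.73, 8.87 and 8.72 on FXR BAT arrays 1 to 5. All FXR arrays lay above all controls, although control BAT 4 stood 0.41 above the next control. The difference was 0.93 ± 0.09 (SE, n = 5 and 5), or 1.90-fold (adjusted p = 0.000121). It kept its call in every setting tried in BAT, and without the 3 arrays rich in muscle RNA it was 0.91 (adjusted p = 0.00279). Mmp9, gelatinase B, is stored by neutrophils and made by macrophages. Its levels were 6.58, 6.41, 6.71, 6.80 and 6.77 in control BAT and 6.51, 6.35, 6.39, 6.56 and 6.31 in FXR BAT. The groups overlapped, and the difference of -0.23 ± 0.08 did not pass (adjusted p = 0.0633). It passed without control BAT 2, at -0.29 (adjusted p = 0.0155).

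Mmp12, the macrophage elastase, rose in BAT. Its controls were close together at 6.41, 6.44, 6.43, 6.42 and 6.37, and FXR arrays lay at 7.14, 6.77, 7.14, 7.20 and 7.18. The groups did not overlap, and FXR BAT 2 stood below the other FXR arrays. The difference was 0.67 ± 0.07, or 1.60-fold (adjusted p = 0.000185), and 0.75 without FXR BAT 1, 2 and 4.

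Of 12 macrophage markers, 11 rose in BAT, and their summed intensity lay between 1497 and 2035 on control and between 2757 and 3445 on FXR arrays, with none near the floor. Of 11 fibroblast and progenitor markers, 10 rose, with sums between 2428 and 3121 on control and between 4973 and 5416 on FXR arrays. Neutrophil markers summed to 638 to 681 and 672 to 696, with 1 of 9 called and 4 (Ly6g, Cxcr2, Ngp and Csf3r) near the floor. Of 11 brown adipocyte markers, 9 fell and 1 rose, and of 7 markers of adipocytes in general, 6 fell. Of 6 smooth muscle and pericyte markers, 4 rose and 1 fell, with sums between 2291 and 2686 on control and between 2822 and 3525 on FXR arrays. Of 9 endothelial markers, 3 fell and 1 rose, with sums between 3788 and 4372 on control and between 2881 and 3733 on FXR arrays. Beside these marker counts, 7.01% of all genes were called higher and 8.75% lower in BAT. The part of these cell types in the changes of the proteases was not tested.

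**Figure D2:**
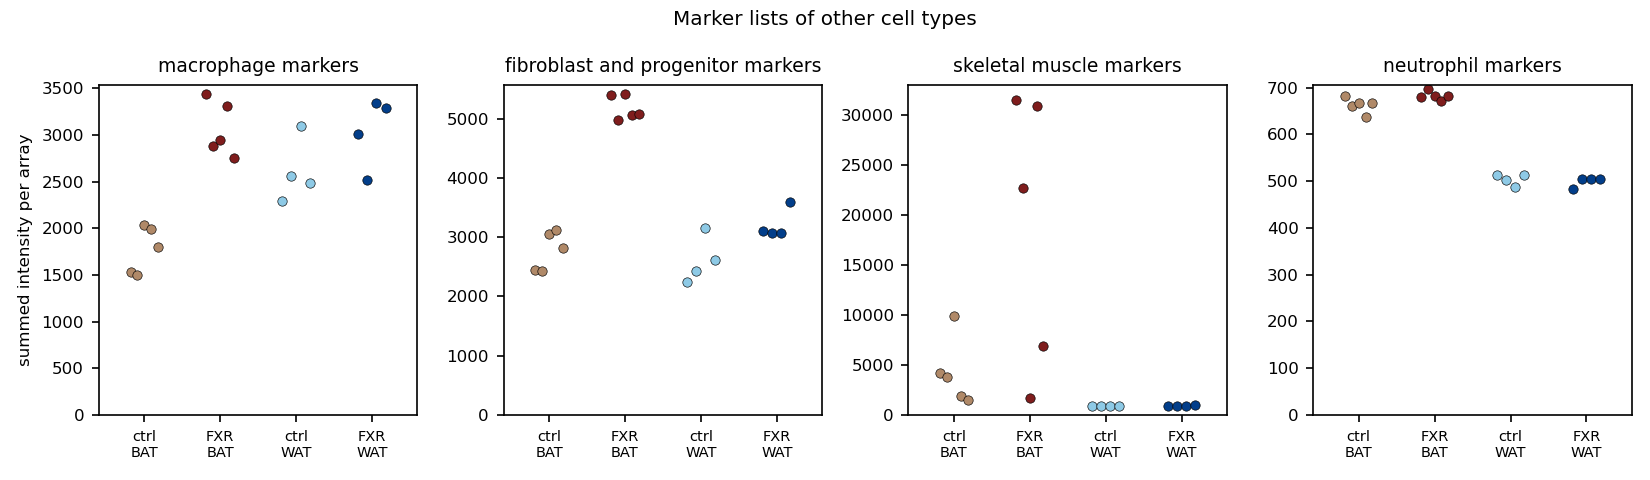
Summed intensity of the marker genes of 4 cell types on each array (points) of the 4 groups; the vertical axes start at 0 and differ between panels. Macrophage and fibroblast sums are higher on every FXR BAT array than on any control BAT array, and muscle sums are high on FXR BAT 1, 2 and 4.

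Membrane-type MMPs sit on the cell surface. Of the 5 measured, Mmp14 rose. Mmp14, a collagenase in its own right and the activator of the MMP2 precursor, had levels of 7.65, 7.65, 7.74, 7.78 and 7.88 in control BAT and of 8.04, 7.97, 7.92, 8.26 and 8.30 in FXR BAT. The groups were separated by 0.04, between control BAT 5 and FXR BAT 3. The difference was 0.36 ± 0.08, or 1.28-fold (adjusted p = 0.0104). It no longer passed without control BAT 2 and 4 (0.34, adjusted p = 0.075) or without FXR BAT 1, 2 and 4 (0.37, adjusted p = 0.0526). Mmp16, Mmp17, Mmp24 and Mmp25 differed by between -0.04 and 0.08 and did not pass.

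Mmp11, or stromelysin 3, is made by stromal cells around growing or regressing epithelia. It lay at 6.68, 6.62, 6.81, 6.69 and 6.84 in control BAT and at 6.98, 6.93, 7.11, 6.88 and 7.15 in FXR BAT, with no overlap. The difference was 0.28 ± 0.06, or 1.22-fold (adjusted p = 0.0102), and did not pass without control BAT 2 and 4 (0.23, adjusted p = 0.0901). Mmp3, Mmp7 and Mmp10, the other stromelysins and matrilysin, differed by 0.02 to 0.21 and did not pass. Mmp1a, Mmp1b, Mmp8 and Mmp13 were grouped as collagenases, a class named for making the first cut in fibrillar collagen. They differed by 0.03 to 0.07, with an adjusted p of 0.205 or more.

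Mmp23, a small MMP without the hemopexin domain of most of the family, was at 6.56, 6.43, 6.52, 6.46 and 6.62 in control BAT and at 6.83, 7.02, 6.92, 6.89 and 6.93 in FXR BAT. FXR arrays all lay higher, by 0.40 ± 0.05 on average, or 1.32-fold (adjusted p = 0.00022). Mmp19, which cleaves basement membrane proteins, ran the other way without passing. Its levels were 8.12, 8.14, 8.29, 8.38 and 8.21 in control BAT and 8.31, 7.88, 7.90, 8.01 and 8.00 in FXR BAT. FXR BAT 1 lay among the controls and the other 4 FXR arrays lay below all of them. The difference was -0.20 ± 0.08 (adjusted p = 0.122), and without FXR BAT 1 it was -0.28 and passed (adjusted p = 0.0122). Of the other MMPs, Mmp20, Mmp21, Mmp27 and Mmp28 did not pass, and Mmp28, or epilysin, had the largest difference at 0.23 (adjusted p = 0.0661).

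**Figure D3:**
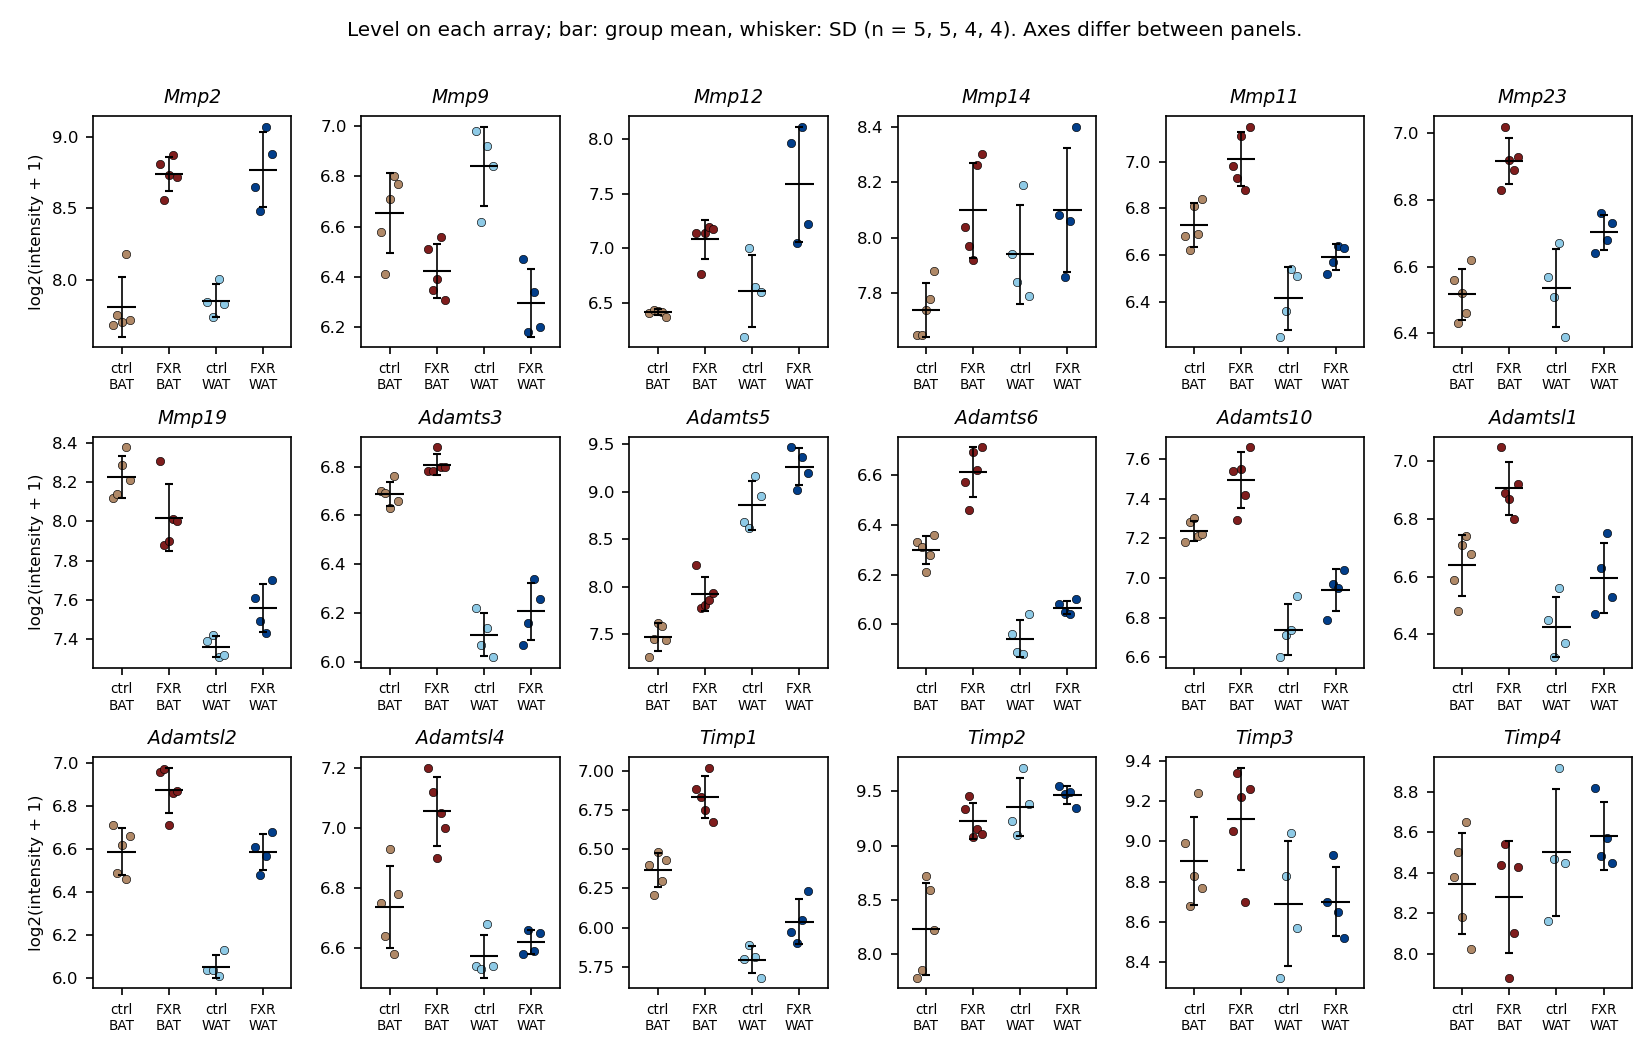
Level (log2(intensity + 1), vertical axis) on each array of the 18 members described array by array; bars are group means and whiskers the SD (n = 5, 5, 4 and 4), and axes differ between panels. Mmp2 is higher on every FXR array than on any control array of the same tissue, whereas Timp2 is separated in BAT and overlaps in WAT.

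Among 7 ADAMTS proteases that cleave proteoglycans, Adamts5 rose in BAT. Adamts5 encodes aggrecanase 2, which cuts aggrecan and versican. It was at 7.26, 7.45, 7.62, 7.59 and 7.44 in control BAT and at 8.23, 7.78, 7.81, 7.86 and 7.94 in FXR BAT. The groups did not overlap, and the difference was 0.45 ± 0.09, or 1.37-fold (adjusted p = 0.00687). Adamts1, Adamts4, Adamts8, Adamts9, Adamts15 and Adamts20 differed by between -0.25 and 0.12 and did not pass. Adamts9 was measured by 6 probe sets, and all 6 were lower in FXR BAT, with differences of -0.251 to -0.119, without passing for the probe set used (adjusted p = 0.201).

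Adamts3 belongs to the enzymes that remove the amino-terminal propeptide of procollagens. Its levels were 6.70, 6.69, 6.63, 6.76 and 6.66 in control BAT and 6.78, 6.78, 6.88, 6.80 and 6.80 in FXR BAT. The groups were 0.02 apart, and the difference was 0.12 ± 0.03, or 1.09-fold (adjusted p = 0.0333). All 16 of its probe sets were higher in FXR BAT, by 0.0148 to 0.121 with a median of 0.0756, and the probe set used had the largest difference. They were read on the same 10 arrays, so they are not separate replicates. The call was lost without any one of 8 of the 10 BAT arrays, with adjusted p between 0.0512 and 0.0788, kept without control BAT 4 and FXR BAT 2, and lost with quantile normalization (0.04, adjusted p = 0.535), with centring (0.04, adjusted p = 0.448) and with the mean of its probe sets (0.07, adjusted p = 0.0908). Adamts14 of the same kind differed by 0.01 (adjusted p = 0.895).

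Adamts6 and Adamts10 are related proteases that act on fibrillin microfibrils. Adamts6 was at 6.33, 6.31, 6.21, 6.28 and 6.36 in control BAT and at 6.57, 6.46, 6.69, 6.62 and 6.71 in FXR BAT, with no overlap. It rose by 0.31 ± 0.05, or 1.24-fold (adjusted p = 0.00201). Adamts10 was at 7.18, 7.28, 7.30, 7.21 and 7.22 in control BAT and at 7.54, 7.29, 7.55, 7.42 and 7.66 in FXR BAT. FXR BAT 2 lay within the control range. Adamts10 rose by 0.25 ± 0.06, or 1.19-fold (adjusted p = 0.0178), and did not pass with arrays centred on their median (0.18, adjusted p = 0.0549) or without control BAT 2 and 4 (0.26, adjusted p = 0.0944). The remaining 7 of the other ADAMTS proteases did not pass, with differences between -0.04 (Adamts13, which cuts von Willebrand factor) and 0.25 (Adamts12).

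ADAMTS-like proteins have the accessory domains of the family without the protease, and several bind fibrillin. Of 5, 3 rose in BAT. Adamtsl1 was at 6.59, 6.48, 6.71, 6.74 and 6.68 in control and at 7.05, 6.89, 6.87, 6.80 and 6.92 in FXR BAT. The groups did not overlap, and the difference was 0.26 ± 0.06, or 1.20-fold (adjusted p = 0.0108), with both of its probe sets higher. Adamtsl2, which binds fibrillin and is tied to TGF-β signalling, was at 6.71, 6.49, 6.62, 6.46 and 6.66 in control and at 6.96, 6.97, 6.71, 6.86 and 6.87 in FXR BAT. FXR BAT 3 reached down to control BAT 1. The difference was 0.28 ± 0.06, or 1.22-fold (adjusted p = 0.0107). Adamtsl4, needed for the fibrillin fibres of the eye lens, was at 6.75, 6.64, 6.93, 6.58 and 6.78 in control and at 7.20, 7.12, 6.90, 7.05 and 7.00 in FXR BAT. It rose by 0.32 ± 0.07, or 1.25-fold (adjusted p = 0.0119), with FXR BAT 3 below control BAT 3.

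None of these 3 kept its call without FXR BAT 1, 2 and 4, where only FXR BAT 3 and 5 remained against the controls. The difference was then 0.25 for Adamtsl1 (adjusted p = 0.06), 0.20 for Adamtsl2 (adjusted p = 0.175) and 0.21 for Adamtsl4 (adjusted p = 0.189). With so few FXR arrays, a lost call does not show that a rise came from the arrays left out. Without control BAT 2 and 4 the adjusted p was 0.0812 for Adamtsl2 and 0.0922 for Adamtsl4. Adamtsl3 differed by 0.39 and Adamtsl5 by 0.14, and neither passed (adjusted p = 0.0954 and 0.308).

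Of the 4 TIMPs, 2 rose in BAT. Timp1, a secreted inhibitor of most MMPs, was at 6.40, 6.21, 6.48, 6.30 and 6.43 in control BAT and at 6.88, 6.83, 6.75, 7.02 and 6.67 in FXR BAT. All FXR arrays were higher, by 0.46 ± 0.07 on average, or 1.38-fold (adjusted p = 0.00134). Timp2, the partner of MMP14 in MMP2 activation, was at 7.78, 7.85, 8.72, 8.59 and 8.22 in control BAT and at 9.34, 9.46, 9.08, 9.15 and 9.11 in FXR BAT. The controls varied more than the FXR arrays (SD 0.423 and 0.166), and the groups did not overlap. Timp2 rose by 1.00 ± 0.17, or 2.00-fold (adjusted p = 0.00308). Without FXR BAT 1, 2 and 4 its difference was 0.86 and did not pass (adjusted p = 0.0549).

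Timp3, which binds to the matrix itself, lay at 8.99, 8.68, 8.83, 9.24 and 8.77 in control BAT and at 9.05, 9.34, 9.22, 8.70 and 9.26 in FXR BAT. Timp4, found in muscle and fat, lay at 8.38, 8.50, 8.18, 8.65 and 8.02 in control BAT and at 8.44, 8.54, 7.88, 8.10 and 8.43 in FXR BAT. The groups overlapped for both. FXR BAT 2 and 5 lay above all controls for Timp3, and FXR BAT 3 lay below all controls for Timp4. The differences were 0.21 ± 0.13 for Timp3 (adjusted p = 0.339) and -0.07 ± 0.14 for Timp4 (adjusted p = 0.822), and the sign of the latter turned without control BAT 4 or without FXR BAT 3.

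In WAT, the same question was put to white fat, with 4 arrays a group. Of 49 members, Mmp2 and Adamtsl2 rose, Mmp9 fell and 46 did not pass. The 3 called members (6.12%) stand beside 1.33% of all genes called, 0.873% higher and 0.456% lower. The median difference was 0.0306 over the members and 0.001 over all genes. FXR and control arrays did not overlap for 9 members (18.4%), against 7.77% of all genes: besides the 3 called, these were Mmp12, Mmp19, Adamts6, Adamts15, Adamtsl5 and Timp1. Some gaps between the groups were very small: 0.0095 for Mmp19, 0.0009 for Adamts6, 0.0063 for Adamtsl5 and 0.0088 for Timp1. At an unadjusted p under 0.05, 14 members were higher and 1 was lower, against 7.03% and 5.47% of all genes.

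Mmp2 was at 7.85, 7.74, 8.01 and 7.83 on control WAT arrays 1 to 4 and at 8.65, 8.48, 9.07 and 8.88 on FXR WAT arrays 1 to 4. Every FXR array lay above every control. The difference of 0.91 ± 0.12 (SE, n = 4 and 4), or 1.88-fold, passed (adjusted p = 0.0141). It did not pass without control WAT 1, 2 or 4 (0.87 to 0.91, adjusted p = 0.059, 0.0534 and 0.0507). Mmp9 was at 6.98, 6.62, 6.92 and 6.84 in control and at 6.47, 6.18, 6.34 and 6.20 in FXR WAT. All FXR arrays lay lower, by 0.54 ± 0.09 on average, or 1.45-fold (adjusted p = 0.0291). Mmp9 exceeded 1.5 times the array's dimmest 1% on 6 of the 8 WAT arrays. The adjusted p was 0.0789, 0.0501 and 0.0853 without control WAT 1, 3 and 4, and 0.0737, 0.0568 and 0.0739 without FXR WAT 2, 3 and 4.

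Neutrophil markers summed to 488 to 513 in control and 483 to 505 in FXR WAT. All 9 were within 1.5-fold of the array's dimmest 1%, and 0 were called (1 higher and 1 lower at an unadjusted p under 0.05 in limma). Macrophage markers summed to 2290 to 3096 and 2517 to 3349, with 0 of 12 called (3 higher at an unadjusted p under 0.05). Fibroblast and progenitor markers summed to 2250 to 3159 and 3070 to 3585, with 1 of 11 called higher. Beside these marker counts, 0.873% of all genes were called higher and 0.456% lower in WAT. The part of these cell types in the results was not tested.

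Adamtsl2 was at 6.04, 6.04, 6.01 and 6.13 in control and at 6.61, 6.48, 6.57 and 6.68 in FXR WAT. The groups lay 0.35 apart, and the difference was 0.53 ± 0.05, or 1.44-fold (adjusted p = 0.00432). This call held in every setting tried. Adamtsl2 was dim, however: it exceeded 1.5 times the array's dimmest 1% on only 4 of the 8 WAT arrays, and averaged 1.35 times it in control WAT. Mmp12 had the largest difference of the family in WAT without passing. Its levels were 6.19, 7.00, 6.65 and 6.60 in control and 7.97, 7.05, 8.11 and 7.22 in FXR WAT. The groups were 0.05 apart, the FXR arrays spread over more than 1 unit (SD 0.532), and the difference was 0.98 ± 0.26 (adjusted p = 0.125). In a fit over all 18 arrays, where the spread is shared with BAT, it passed (adjusted p = 0.0114).

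The other members described in BAT did not pass in WAT. Mmp14 was at 7.94, 7.84, 8.19 and 7.79 in control and 8.08, 7.86, 8.06 and 8.40 in FXR WAT, overlapping, with a difference of 0.16 (adjusted p = 0.683). Adamts5 was at 8.68, 8.62, 9.17 and 8.96 in control and 9.47, 9.02, 9.37 and 9.20 in FXR WAT. Its difference of 0.41 was close to that in BAT and did not pass (adjusted p = 0.217), with FXR WAT 2 within the control range. Timp1 was at 5.80, 5.89, 5.81 and 5.68 in control and at 5.97, 5.90, 6.05 and 6.23 in FXR WAT, 0.24 higher (adjusted p = 0.174). It exceeded 1.5 times the array's dimmest 1% on only 1 WAT array. Timp2 was at 9.23, 9.10, 9.72 and 9.38 in control and at 9.55, 9.48, 9.49 and 9.35 in FXR WAT. Its groups overlapped, and it differed by 0.11 (adjusted p = 0.796).

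Mmp19 was at 7.39, 7.42, 7.31 and 7.32 in control and at 7.61, 7.49, 7.43 and 7.70 in FXR WAT, 0.20 higher without overlap (adjusted p = 0.182). Adamts6 was at 5.96, 5.89, 5.88 and 6.04 in control and at 6.08, 6.05, 6.04 and 6.10 in FXR WAT, where it was near the floor on every array, and differed by 0.12 (adjusted p = 0.208). Mmp23 was at 6.57, 6.51, 6.67 and 6.39 in control and at 6.64, 6.76, 6.68 and 6.73 in FXR WAT, a difference of 0.17 (adjusted p = 0.255). Of these, Mmp19 and Adamts6 were separated by no more than 0.0095 and 0.0009, and Mmp23 overlapped. Mmp11 (6.25, 6.36, 6.54 and 6.51 against 6.52, 6.57, 6.64 and 6.63) differed by 0.17, with FXR WAT 1 within the control range. Adamts10 (6.60, 6.71, 6.74 and 6.91 against 6.79, 6.97, 6.95 and 7.04) differed by 0.20 and overlapped as well. Neither passed (adjusted p = 0.308 and 0.283).

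The remaining members given array by array overlapped between the WAT groups. Adamtsl1 was at 6.45, 6.32, 6.56 and 6.37 in control and at 6.47, 6.63, 6.75 and 6.53 in FXR WAT (difference 0.17). Adamts3 was at 6.22, 6.07, 6.14 and 6.02 in control and at 6.07, 6.16, 6.34 and 6.26 in FXR WAT (difference 0.09). None of the members in this paragraph passed. Adamtsl4 was at 6.54, 6.53, 6.68 and 6.54 in control and at 6.58, 6.66, 6.59 and 6.65 in FXR WAT (difference 0.04). Timp3 was at 8.32, 8.83, 9.04 and 8.57 in control and at 8.70, 8.93, 8.65 and 8.52 in FXR WAT (difference 0.01). Timp4 was at 8.16, 8.47, 8.92 and 8.45 in control and at 8.82, 8.48, 8.57 and 8.45 in FXR WAT (difference 0.08). The differences of Timp3 and Timp4 were smaller than their SE, and that of Timp3 was below 0 with quantile normalization and with arrays centred on their median.

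Members outside this set did not pass in WAT. The proteoglycan-cleaving Adamts15 was separated between the groups, with a difference of 0.46 (adjusted p = 0.129). Mmp7, or matrilysin, differed by 0.35 (adjusted p = 0.376), and the collagenases by between -0.05 and 0.03.

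The change in WAT was then compared with that in BAT directly, over all 18 arrays. Differences here are WAT change minus BAT change, so a positive one means a more positive change in WAT, not a larger one. Of 49 members, Timp2 and Mmp19 were called (4.08%), a share below the background of 6.46% of all genes. Of all genes, 4.44% were called with a positive and 2.02% with a negative difference. Timp2 changed less in WAT than in BAT, by -0.89 ± 0.24 (adjusted p = 0.0314). For Mmp19 the WAT change minus the BAT change was 0.40 ± 0.11 (adjusted p = 0.0386). The tissues' own differences, 0.20 in WAT and -0.20 in BAT, both fell short of passing. Both calls were fragile. That of Timp2 was lost without any one of 7 arrays: control BAT 2, FXR BAT 1 and 2, control WAT 3 and 4, and FXR WAT 2 and 4 (adjusted p between 0.051 and 0.0634). It was also lost without FXR BAT 1, 2 and 4 together (-0.76, adjusted p = 0.139), where Mmp19, Adamts6, Adamtsl3 and Mmp28 were called, and without control BAT 2 and 4 (-0.89, adjusted p = 0.0501). That of Mmp19 was lost without any one of 12 of the 18 arrays (adjusted p between 0.0504 and 0.0816); it was kept without control BAT 1, 2 and 5, FXR BAT 1, and FXR WAT 2 and 3. Mmp19 also missed the threshold with quantile normalization (0.34, adjusted p = 0.099) and without control BAT 2 and 4 (0.38, adjusted p = 0.098).

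The difference between tissues did not pass for 47 members. For Mmp2 it was -0.02 ± 0.16 (adjusted p = 0.973), for Mmp12 0.31 ± 0.26 (adjusted p = 0.597) and for Mmp9 -0.31 ± 0.12 (adjusted p = 0.162). Adamtsl2, called in both tissues, changed by 0.24 ± 0.08 more in WAT (adjusted p = 0.0975). For the genes that encode the proteins of MMP2 activation, the differences in RNA level side by side were as follows. Mmp2 differed by 0.93 in BAT and 0.91 in WAT, Mmp14 by 0.36 and 0.16, and Timp2 by 1.00 and 0.11. Of these 3, the difference between tissues was called for Timp2 only, and that of Mmp14 was -0.20 ± 0.15 (adjusted p = 0.515).

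The 10 neighbouring MMP genes of chromosome 9 lie in the order Mmp13, Mmp12, Mmp1b, Mmp3, Mmp1a, Mmp10, Mmp8, Mmp27, Mmp20 and Mmp7. In BAT, Mmp12 was called and the other 9 were not, with differences from 0.02 (Mmp10) to 0.21 (Mmp3). In WAT 0 of 10 were called, with 2 at an unadjusted p under 0.05, Mmp12 and Mmp7. Of the 12 MMP genes elsewhere, 4 were called in BAT. Of 8 members with the AP-1 motif shown above, 1 was called in BAT, of 26 with a listed promoter without it 8, and of 15 with no listed promoter 5. The share called over all genes was 15.8% in BAT and 1.33% in WAT. These counts are small, and a link between the motif and the calls was not tested. The motif was also present at Mmp13, Mmp1b, Mmp1a, Mmp10 and Mmp20, whose levels were near the floor on every WAT array and differed by 0.02 to 0.07 in BAT. Mmp3 and Mmp7 have it as well. Mmp3 was near the floor on every WAT array and differed by 0.21 in BAT. Mmp7 differed by 0.05 in BAT and by 0.35 in WAT, without passing in limma (adjusted p = 0.387 and 0.376).

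**Figure D4:**
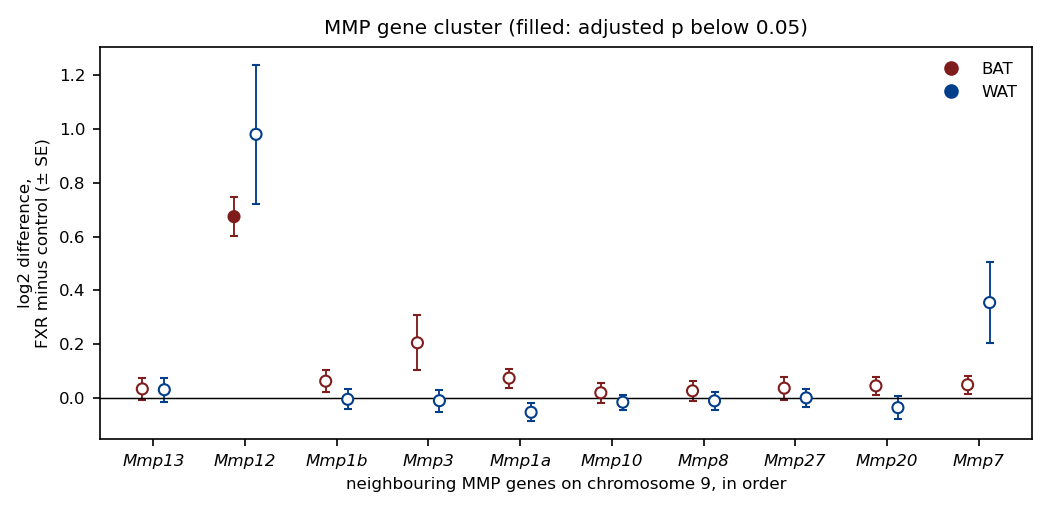
Difference between FXR and control (log2, vertical axis, with SE) for the 10 neighbouring MMP genes of chromosome 9 in their order, in BAT and WAT; filled points had an adjusted p below 0.05. Mmp12 stands above its neighbours in both tissues, at 0.67 in BAT and 0.98 in WAT, and only its BAT point is filled.

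Levels of the members in control BAT and control WAT were compared last, and these depend on the scaling. As deposited, 37 members were higher in BAT, 4 lower and 8 did not pass, against 96.8% of all genes called, 94.8% higher and 1.98% lower. The control groups did not overlap for 36 members, nor for 94% of all genes. The median difference, control BAT minus control WAT, was 0.591 over all genes and 0.431 over the members, and 10 members lay above the former. With quantile normalization 6 members were higher and 24 lower (58.1% of all genes, 29.3% higher and 28.8% lower), and with arrays centred on their median 2 were higher and 37 lower (83% of all genes, 36.2% higher and 46.8% lower). Only 5 members kept a call in 1 direction under all 3 scalings. Adamts17 was higher in BAT, by 1.45 as deposited, 0.56 with quantile normalization and 0.79 with centring. Timp2 was lower in BAT, by -1.13, -2.55 and -1.79, and Adamts5 by -1.38, -2.65 and -2.04. The other 2 were Adamts12 (-0.38, -1.55 and -1.05) and Mmp14 (-0.20, -1.43 and -0.86).

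Ranks within an array do not depend on such scaling, although they do depend on how many genes a tissue expresses. Timp2 was brighter than 81.3% of genes in control BAT and than 98.7% in control WAT. Adamts5 ranked at 68.0% and 97.7%, Mmp12 at 34.4% and 69.2%, and Mmp2 at 74.8% and 93.2%. Adamts17 ran the other way, at 72.5% and 56.5%, as did Mmp3, at 45.5% and 24.7%. In FXR BAT the rank of Timp2 was 93.4%, that of Mmp2 89.2% and that of Mmp12 57.0%, each between the control BAT and control WAT ranks. This did not hold for all members called in BAT. Timp1 ranked at 31.2% in control BAT, 49.4% in FXR BAT and 19.8% in control WAT. The same ranks were 27.3%, 41.1% and 38.6% for Adamts6 and 43.1%, 51.1% and 47.4% for Adamtsl2. Mmp3, not called, was at 50.5% in FXR BAT, above both control ranks.

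**Figure D5:**
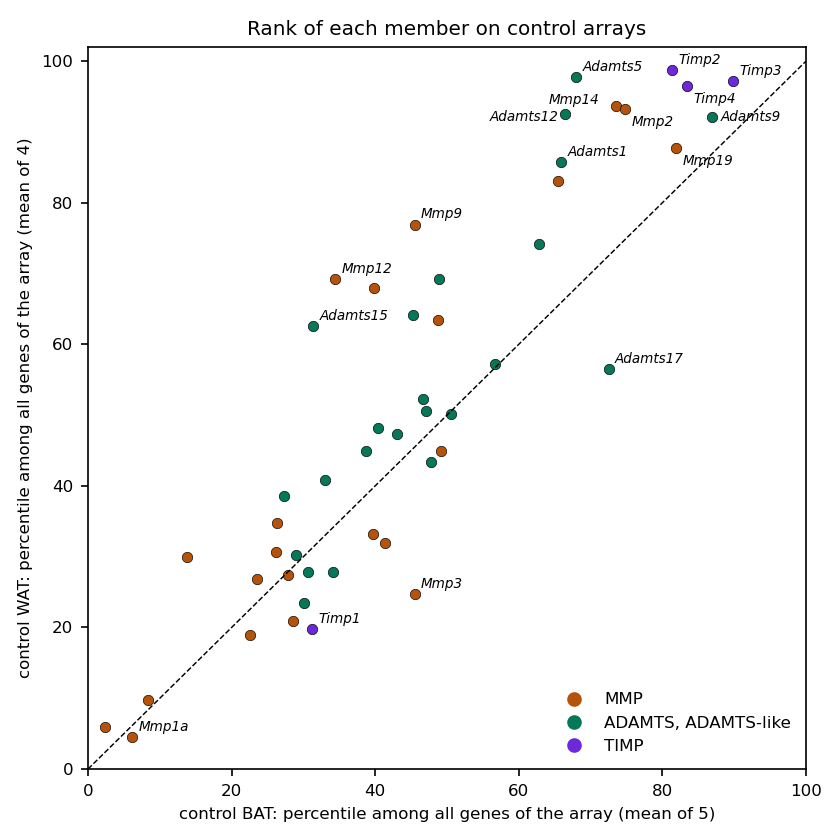
Rank of each of the 49 members among all genes of an array (percentile, mean over arrays) in control BAT (horizontal axis) and control WAT (vertical axis); the dashed line marks equal ranks. Mmp12, Mmp9, Adamts15 and Adamts5 lie far above the line, Timp2 less far above it, and Adamts17 and Mmp3 below it.

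Other genes of matrix turnover outside the family were described from a list of 46, of which 44 were measured. In BAT 17 rose, 3 fell and 24 did not pass (median difference 0.0966), against 7.01% of all genes called higher and 8.75% lower. Those that fell, named after their values were seen, were the cathepsin gene Ctsz, the metalloprotease gene Adam12 and Bsg, an inducer of MMPs. The 4 with the smallest adjusted p were Mrc2, a receptor that takes up collagen fragments (0.57), Pcolce, which enhances the removal of the procollagen C-propeptide (1.54), Reck, a membrane-anchored MMP inhibitor (0.51), and Plat, tissue plasminogen activator (0.39). In WAT 5 rose and the other 39 missed the threshold, with 0 falls, against 0.873% of all genes called higher and 0.456% lower. At an unadjusted p under 0.05 in limma 17 were higher and 1 lower, and the median difference was 0.151. Among them were the lysosomal cathepsin genes Ctsd (0.66) and Ctsl (0.66), Mrc2 (0.74) and the metalloprotease gene Adam19 (0.21). Ctsd and Mrc2 kept their calls in every setting tried. Ctsl did not pass without control WAT 1 (adjusted p = 0.0559), nor Adam19 without control WAT 1 or 2 or FXR WAT 1 or 4 (adjusted p between 0.0604 and 0.0727) or in 1 fit over all 18 arrays (adjusted p = 0.0581).

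Of 26 measured substrates of these proteases, 20 rose in BAT and 7 in WAT, against 7.01% and 0.873% of all genes. Falls numbered 0 in either tissue (0 and 3 lower at an unadjusted p under 0.05 in limma). In BAT those that rose included Bgn, a small proteoglycan (1.80), Thbs2, which binds MMP2 (1.40), and the collagen VI genes Col6a1 (0.85) and Col6a2 (0.72). In WAT they included Col6a2 (0.87), Col6a1 (0.89), Sparc, a collagen-binding protein (0.43), and Ncan, a proteoglycan (0.28). Each of these 4 WAT calls was lost without some single arrays: Col6a2 without control WAT 1, 2 or 4, Sparc and Col6a1 without those or FXR WAT 1 or 4, Col6a1 also without FXR WAT 2, and Ncan without any array but FXR WAT 4 (adjusted p between 0.0509 and 0.0994). Sparc was also lost with quantile normalization (0.16, adjusted p = 0.317) and with an intensity trend and robust eBayes (adjusted p = 0.101). Of 25 measured regulators of the family, Tgfb3, a TGF-β ligand, rose by 1.02 ± 0.04 in BAT (adjusted p = 3.26e-07) and by 0.41 ± 0.06 in WAT (adjusted p = 0.024). The call in WAT was lost without control WAT 1, 2 or 4 or FXR WAT 2, 3 or 4 (adjusted p between 0.0501 and 0.0727). The transcription factor gene Runx1 rose by 0.24 in BAT (0.14 with quantile normalization). The other 23 in BAT and 24 in WAT did not pass, the FOS and JUN genes whose proteins form AP-1 among them.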

How the data were processed

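The deposited value table holds 1 linear intensity per probe set and array, from 36.0 to 15980. The sources used here do not give how the authors summarised or normalized these intensities. Precision is limited by the number of arrays. A single gene symbol was listed for 21640 of 34760 probe sets. The platform annotation listed several for 1321 and none for 11799, and these were left out. Gene IDs of all 49 members were found in RefSeq, with 0 differing symbols. Values were kept as deposited, log2(intensity + 1) was taken, and limma 3.58.1 (lmFit, eBayes; R 4.3.3) gave two-sided tests of the differences within BAT (10 arrays), within WAT (8), over all 18 for the difference of both changes, and over the controls. The script was tested on simulated data. Members called for FXR against control or between tissues, all TIMPs, Mmp2, Mmp9, Mmp12, Mmp14 and Adamts5 were given array by array, and other members by range. From each list of related genes, up to 4 called genes with the smallest adjusted p were named per tissue, and Nr1h4. The members and lists were chosen with earlier results of these data known. Alternatives were pseudocounts of 0 and 16, a filter on dim genes, quantile normalization, median centring, the mean of probe sets, an intensity trend with robust eBayes, 1 fit over all arrays, the replicate number as a block, and leaving out arrays.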

Additional observations from a re-analysis of the deposited data

Results flagged for a closer look

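An array stood apart from the others of its group, by Dixon's ratio at its 95% critical value, in 4 of 72 groups of the 18 members given array by array. Chance gives about 1 in 20. Mmp2 on control BAT 4 was at 8.18, above the other controls. Mmp12 on FXR BAT 2 was at 6.77, below the other FXR arrays. Adamts3 on FXR BAT 3 was at 6.88 and Adamtsl4 on control WAT 3 at 6.68, both above their groups. The change with FXR differed between the tissues for Timp2, by -0.89 (WAT change minus BAT change, adjusted p = 0.0314), and for Mmp19, by 0.40 (adjusted p = 0.0386), in limma's fit over all 18 arrays.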

How the results depend on the processing

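Of the called members, 6 of 14 in BAT (Mmp2, Mmp12, Mmp23, Adamts5, Adamts6 and Timp1), 1 of 3 in WAT (Adamtsl2) and 0 of 2 for the difference between tissues kept their calls in every setting. The BAT count of 14 was 9 without control BAT 2 and 4, and 13 to 15 without single arrays. The WAT count of 3 was 5 in 1 fit over all 18 arrays and 1 to 3 without single arrays, and that of 5 related genes 2 to 5. The count of 2 between tissues was 4 with median centring, 1 without control BAT 2 and 4, 4 without FXR BAT 1, 2 and 4, and 0 to 3 without single arrays, 0 without control WAT 3; the cause was not tested. Signs turned for differences that did not pass. Timp4 in BAT was 0.0824 without control BAT 2 and 4, and -0.151 to 0.0311 without single arrays, above 0 without control BAT 4 or FXR BAT 3. Timp3 in WAT was -0.0587 with quantile normalization, -0.0064 with median centring, and -0.1165 to 0.126 without single arrays, below 0 without control WAT 1 or 4 or FXR WAT 2. Timp4 in WAT was -0.0318 to 0.2212 without single arrays, below 0 without control WAT 1, and Nr1h4 in BAT was -0.0295 with median centring. With the replicate number as a block, 17 members were called in BAT (16 higher, 1 lower), 3 in WAT, 3 between tissues and 42 between control tissues, and 22 and 4 related genes in BAT and WAT. Calls then lost were Adamts3 in BAT (adjusted p = 0.098) and Adam19 and Ncan in WAT (0.0528 and 0.068). The correlation of same-numbered deviations ran from -0.493 to 0.276 in BAT and from 0.009 to 0.157 in WAT, and the numbers were not taken as pairs. Signal near the floor limits WAT, where 22 members were dim.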
